A study of Mus musculus with 2 samples.

Results

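The basement membrane genes followed here are 9 of the 32285 genes listed in the deposited tables of mouse embryonic stem cells: Col4a1, Col4a2, Lama1, Lama5, Lamb1, Lamc1, Nid1, Hspg2 and Sparc. They were chosen by symbol after results of these same data were known, among them the sonKD to control ratios of Col4a1 and Lamb1, so their values are given as a description. The study profiled E14 cells (129/Ola background) by single-cell RNA sequencing with 10x Genomics 3′ v3 chemistry. One library, called control here, came from cells given a control siRNA, and the other, called sonKD, from cells given siRNA against Son, which encodes an RNA-binding protein of nuclear speckles. Both came from serum-grown cultures (15% fetal bovine serum) with 1000 U/mL of leukaemia inhibitory factor, were taken 24 h after lipid transfection, and were frozen, thawed and sorted for live cells with 7-AAD. E14 is a single established line, and with 1 library per group an effect of the siRNA and any other difference between the libraries cannot be told apart. No test was made, and every interval below is a 95% interval that covers counting error only.

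A basement membrane is a thin sheet of extracellular matrix on which epithelial cells rest. Laminins are trimers of an alpha, a beta and a gamma chain, and they polymerize at the cell surface, where integrins and dystroglycan bind them. Collagen IV forms a second network from trimers of alpha chains, nidogen and perlecan link the networks, and SPARC is a secreted protein that binds collagen. In the early mouse embryo the primitive endoderm and the parietal endoderm derived from it are strong producers of laminin-111 and collagen IV, and cultures of embryonic stem cells make smaller amounts.

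The genes of both collagen IV chains lie head to head on chromosome 8. In the GENCODE M21 annotation of GRCm38, Col4a1 occupies chr8:11198423-11312826 on the minus strand with 52 exons in its longest transcript, and Col4a2 occupies chr8:11312805-11449287 on the plus strand with 48. Their 5′ ends overlap, and the RefSeq promoter windows (250 bases before to 50 after each start, build GRCm38.p6) share the 78 bases chr8:11312777-11312854. That stretch is printed on each gene's own strand because it belongs to the promoter windows of 2 genes compared below. Capitals mark the 22 bases from one annotated first transcribed base to the other, both included.

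Col4a1: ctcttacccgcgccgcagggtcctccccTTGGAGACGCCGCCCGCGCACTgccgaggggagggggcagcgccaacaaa

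Col4a2: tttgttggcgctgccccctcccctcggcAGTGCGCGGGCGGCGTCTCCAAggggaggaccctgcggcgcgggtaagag

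The letters GGGCGG, the core of the GC box, searched on both strands, occur 1 time in this shared stretch, within the capitals. The whole window held 1 match for Col4a1 and 3 for Col4a2, and 35.9% of 27025 promoter windows of that length held at least 1. Windows were found for 7 of the 9 genes, all but Lama1 and Lamc1. Hspg2 had 5 matches, Lama5 4, Lamb1 2, Nid1 1 and Sparc 0. The letters TATAAA, searched likewise, which 14.2% of all windows held, had no match in the 7. CCAAT and GATAA were searched too. CCAAT, which 37.9% of all windows held, had 1 match each for Col4a1, Col4a2, Lamb1 and Nid1. GATAA, which 25.8% held, had no match in the 7. These motifs were chosen after the data were seen, and a match is not evidence of binding.

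The control library held 71046373 UMIs (unique molecular identifiers, each marking a captured transcript) and the sonKD library 60352438. Barcodes were kept as cells with 2500 UMIs or more, 1000 genes or more and a mitochondrial share up to 10%, which left 4978 in control and 2731 in sonKD. Cells of sonKD were deeper, with a median of 11612 UMIs against 7737.5. The libraries shared 2 cell barcodes. Son itself stood at 169 UMIs per 1000000 (CPM) in control cells (interval 165 to 173) and 106 in sonKD (102 to 109), 62.7% of the control level. All 12 genes of an embryonic stem cell marker list were above 10 CPM, Pou5f1 at 1104 and 916 CPM in control and sonKD. Fibroblast markers summed to under 10 CPM in each library with Col3a1, Postn and Lum at 0, mesoderm markers to 5.16 and 5.06, and trophectoderm markers to 8.97 and 11.9 with Elf5 at 0. Endothelial markers summed to 56.5 and 55.5 CPM, almost all Pecam1. Neuroectoderm markers summed to 55.3 and 52.1 CPM, mostly Tubb3 and with Neurog2 at 0. The 22 primitive endoderm markers summed to 77.1 and 94.4 CPM, most of it Krt8 and Krt18, and Ttr was at 0.

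All 9 genes were transcribed in both libraries, and 7 of the 9 were lower in sonKD with an interval below 0. The share of all genes with such an interval was not counted, so the 7 are not set apart from other genes. A ratio below 0 was common. Of the 8063 genes with a mean of 10 CPM or more, 6039 had one, as had 7 of the 8 members at that level. The ratios of the 9 genes were small. Taking the 8 whose mean reached 10 CPM, 3 stood at 80% of the control level or less (a log2 ratio of at most -0.32), the limit used for a call, and 0 were as far above the control level. Among all 8063 genes at that level, 10.2% were lower by that much and 3.5% higher. The median log2 ratio of the 8 was -0.26, and that of all 8063 was -0.12. The 3 lower genes were Col4a1, Lama1 and Hspg2, and all 3 stood close to the limit. Without 4 cells described further on, Hspg2 alone remained past it, and the median of the 8 was -0.22. With trimmed-mean (TMM) scaling none of the 8 was past it, their median was -0.17, and 45.2% of all calls were lower ones in place of 74.4%. Without mitochondrial and ribosomal protein genes in the totals the same figures were 0, -0.19 and 52.2%.

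The collagen IV chains rested on few UMIs. Col4a1, which supplies 2 of the 3 chains of the commonest collagen IV trimer, had 559 UMIs in control cells and 344 in sonKD. That is 13.7 CPM (12.6 to 14.8) and 10.7 CPM (9.63 to 11.9), a log2 ratio of -0.35 (-0.55 to -0.15). Col4a2, its partner chain, had 214 and 166 UMIs, or 5.23 CPM (4.55 to 5.98) and 5.18 CPM (4.42 to 6.03). Its log2 ratio of -0.01 (-0.32 to 0.29) covered both no difference and the ratio of Col4a1, and its level was under the 10 CPM needed for a call. The sign of the Col4a2 ratio turned with the scaling, to 0.08 with TMM and 0.06 without mitochondrial and ribosomal protein genes.

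The 3 chains of laminin-111, Lama1, Lamb1 and Lamc1, were all lower in sonKD. Lama1, the alpha chain of the early embryo, lies at chr17:67697259-67822647 and stood at 37.6 CPM (35.7 to 39.5) in control and 30.0 CPM (28.1 to 31.9) in sonKD. Its log2 ratio was -0.33 (-0.44 to -0.21). Lamb1, the beta chain at chr12:31265234-31329644, stood at 15.5 CPM (14.3 to 16.7) and 12.5 CPM (11.4 to 13.8). Its log2 ratio of -0.30 (-0.49 to -0.12) was just inside the limit for a call. Lamc1, the gamma chain common to most laminins, lies at chr1:153218922-153332786 and stood at 121 CPM (117 to 124) and 107 CPM (104 to 111). Its log2 ratio was -0.17 (-0.23 to -0.11), near the median of all genes. Lama5, the alpha chain of laminin-511, which is widely used to coat dishes for pluripotent cells, lies at chr2:180176373-180225859. It stood at 25.3 CPM (23.8 to 26.9) and 22.8 CPM (21.1 to 24.5), a log2 ratio of -0.15 (-0.29 to -0.01). The intervals of the 4 laminin ratios overlapped, those of Lama1 and Lamc1 only narrowly. Differences between the chains were not tested, and no order among them is given.

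The linking proteins followed the same direction. Nid1, which encodes nidogen-1 (chr13:13437551-13512269), had 36.2 CPM (34.4 to 38.1) in control and 31.0 CPM (29.1 to 33.0) in sonKD, a log2 ratio of -0.23 (-0.34 to -0.11). Hspg2 (chr4:137468769-137570630), which encodes the heparan sulfate proteoglycan perlecan, had 65.9 CPM (63.4 to 68.4) and 52.2 CPM (49.7 to 54.7). Its log2 ratio of -0.34 (-0.43 to -0.25) was the most precise of the 3 called. Under TMM scaling it was -0.25 and as a mean of per-cell CPM -0.23, both inside the limit. Nid1 overlaps an antisense gene, Col4a1 overlaps Gm15418 and Col4a2 overlaps Gm15419 on the opposite strand. How strand was treated in the counting is not given in the sources used here.

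Sparc was the 1 gene with an interval above 0. Col4a2, at -0.01 (-0.32 to 0.29), did not clearly share the lower direction of the others either. The Sparc gene, at chr11:55394500-55423183, had 9146 UMIs in control cells and 7400 in sonKD. That is 224 CPM (219 to 228) and 231 CPM (226 to 236), a log2 ratio of 0.05 (0.00 to 0.09), above the median of all genes. Summed, the other 8 genes stood at 320 CPM (315 to 325) in control and 272 CPM (266 to 277) in sonKD, a log2 ratio of -0.24 (-0.28 to -0.20). The interval of Sparc did not overlap that of the sum of the other 8.

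**Figure D1:**
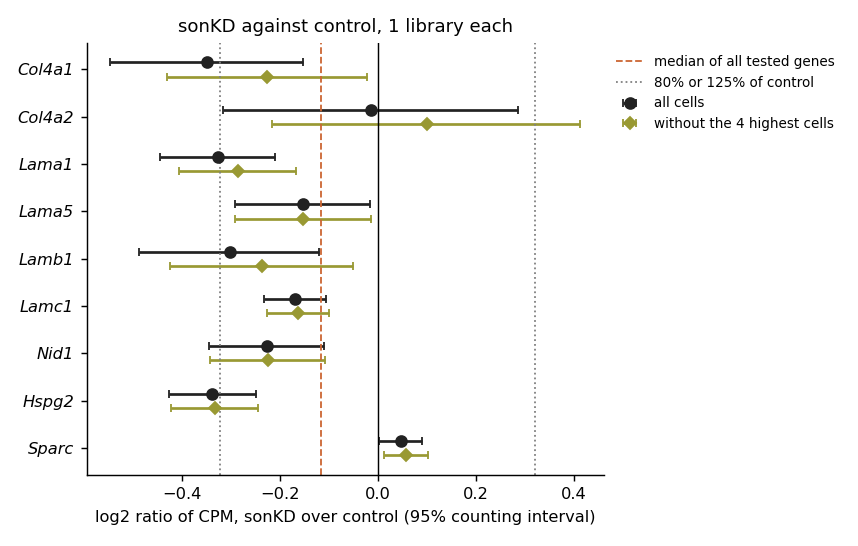
Log2 ratio of CPM in sonKD over control for each gene (horizontal axis), with 95% counting intervals, over all cells (circles) and without the 4 cells highest in these genes (diamonds). The dashed line is the median of all 8063 genes (-0.12), the dotted lines mark the limits for a call in either direction, and Sparc is the one gene whose interval lies above 0.

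Sparc also stood apart in the droplets that held no cell. In barcodes of 100 to 500 UMIs, taken here as free RNA, Sparc was at 166 CPM (160 to 172) in control and 163 CPM (158 to 169) in sonKD. Its level in cells was therefore only 1.35 and 1.41 times that in free RNA. For the other 8 genes the level in cells was 4.01 to 8.01 times the free RNA level in control and 4.33 to 9.63 times in sonKD. A UMI of Sparc in a cell is thus weaker evidence of its expression there than a UMI of the other genes, and the part of free RNA in the Sparc values was not tested.

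**Figure D2:**
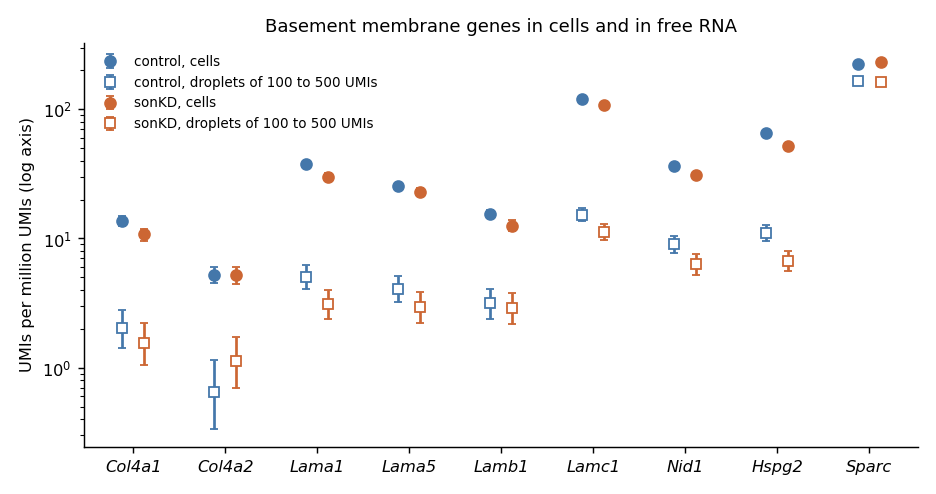
Level of the 9 genes in CPM (log axis) in cells (filled circles) and in droplets of 100 to 500 UMIs (open squares) of the control (blue) and sonKD (orange) libraries, with 95% counting intervals. The squares of Sparc (166 and 163 CPM) lie just under its circles (224 and 231 CPM), while those of the other genes lie well below. Heights are not comparable between genes.

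Sparc also differed from the others in transcript length. The longest annotated transcript of Sparc has 2300 bases, longer than 28.6% of tested genes, and those of the other 8 have 5784 to 14187 bases, longer than 82.8% to 99.3%. With all genes split into 10 equal groups by that length, the median log2 ratio was 0.02 in the group with the shortest transcripts and -0.17 in the group with the longest. In the group that holds Sparc it was -0.06, and in the one that holds Col4a1, Lamb1 and Nid1 it was -0.16. The share of genes at 80% of control or less was 8.44% to 12.2% in every group, while the share called higher was 19.5% in the group with the shortest transcripts, 3.23% in that of Sparc and 0.50% in that with the longest. The part of length in the ratios was not tested, and the groups were chosen after the data were seen.

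In cells brought to the same depth the genes were found in a minority of cells, and the shares differed by a few points between libraries. Cells were randomly thinned to 2500 UMIs, a depth at which none was lost. In control, 24.1% of cells (22.9 to 25.3) then held a UMI of Lamc1, and in sonKD 21.8% (20.3 to 23.4), a difference of -2.30 points (-4.26 to -0.31). Hspg2 was found in 15.2% (14.3 to 16.3) and 12.3% (11.1 to 13.6), a difference of -2.94 points (-4.53 to -1.32). For each of the other 7 genes the interval of the difference included 0. These differences moved with the random draw. In another draw at the same depth that of Lamc1 was -2.94 (-4.92 to -0.94), that of Hspg2 -1.49 (-3.12 to 0.17), that of Nid1 -2.26 (-3.51 to -0.97) and that of Lama1 -1.50 (-2.67 to -0.29). So Lamc1 was the 1 gene whose interval lay below 0 in both draws. At 5000 UMIs, with the shallower cells left out, the intervals of Lama1, Lamb1, Lamc1, Nid1 and Hspg2 lay below 0 and that of Sparc above it. The Hspg2 difference there was -4.69 points (-6.71 to -2.63) and the Sparc difference 3.23 (0.85 to 5.59). In the first draw at 2500 UMIs Sparc was in 40.9% and 42.5% of cells, Nid1 in 8.22% and 7.32%, Lama1 in 7.57% and 6.81%, and Lama5 in 6.13% and 5.90%. Lamb1 was in 3.64% and 3.48%, Col4a1 in 3.13% and 2.75%, and Col4a2 in 1.21% and 1.39%.

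In control 71.4% of cells (70.2 to 72.7) held a UMI of any of the 9 genes, and in sonKD 69.2% did (67.4 to 70.9). Leaving Sparc aside, at least 1 of the other 8 was found in 51.2% (49.8 to 52.6) and 46.8% (44.9 to 48.7), a difference of -4.49 points (-6.83 to -2.13). Without thinning, every gene was found in more of the deeper sonKD cells, for example Lamc1 in 55.2% of control and 63.2% of sonKD cells and Hspg2 in 37.8% and 42.1%. Those unthinned shares go against the CPM for all but Sparc, though the CPM of Col4a2 was nearly equal in both libraries, and are not read as an order. In cells thinned to 5000 UMIs (4464 and 2559, with 514 and 172 shallower cells left out), most cells showed few of the genes. None of the 9 was found in 10.2% of control and 11.8% of sonKD cells, 1 in 30.6% and 33.8%, 2 in 32.7% and 32.8%, and 3 in 19.2% and 15.8%. A single control cell showed 8 of them.

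That control cell belonged to a handful of cells in which these genes took a far larger share of the transcripts. Per cell, UMIs of the 9 genes had a median of 485 CPM in control and 459 in sonKD, and a 99th percentile of 1661 and 1694 CPM. In control, 3 cells stood at 18013, 17470 and 7145 CPM, and the next highest at 3408. In sonKD, 1 cell stood at 7601 CPM and the next at 4740. These 4 cells, which held at least 5000 CPM, are 0.0603% of control cells (exact interval 0.0124 to 0.176) and 0.0366% of sonKD cells (0.0009 to 0.204). The shares overlap, and both the cells and the limit were chosen after the data were seen.

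In the 4 cells the collagen IV and laminin-111 genes were high together. The cells were picked by the sum of the 9 genes, so high levels of some of these genes were set by that choice. The values describe which of the 9 made up the sum. The highest control cell, of 10992 UMIs, held 30 UMIs of Col4a1, 13 of Col4a2, 51 of Lama1, 24 of Lamb1, 21 of Lamc1 and 52 of Sparc. The second, of 4751 UMIs, held 19 of Col4a1, 3 of Col4a2, 18 of Lama1, 10 of Lamb1, 2 of Lamc1 and 26 of Sparc. The third, of 14276 UMIs, held 16, 11, 12, 11, 14 and 32 of the same genes in that order. The sonKD cell, of 13287 UMIs, held 13, 9, 24, 11, 10 and 31. Lama5 and Nid1 did not share this: over the 3 control cells Lama5 had 1 UMI, or 33.3 CPM (0.843 to 186), and Nid1 3 UMIs, or 99.9 CPM (20.6 to 292). These intervals reach down to the levels of the whole library, whereas Col4a1 stood at 2165 CPM (1671 to 2760) against 13.7 and Lama1 at 2698 CPM (2143 to 3354) against 37.6. Hspg2 stood at 466 CPM (255 to 782) against 65.9 CPM in all control cells.

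The same cells held transcripts of the primitive endoderm list, which was written without these 9 genes. Over the 3 control cells there were 14 UMIs of Gata4 and 10 of Gata6, both transcription factors of endoderm, and 5 of the growth factor receptor gene Pdgfra. The endocytic receptor genes Cubn and Lrp2 had 33 and 29 UMIs, the endocytic adaptor gene Dab2 had 31, and Srgn, which encodes the proteoglycan serglycin, had 43. Those are 80.5% of all Cubn UMIs in the control cells, 81.1% of Srgn and 34.5% of Gata6. The sonKD cell held 3 UMIs of Gata4, 4 of Gata6, 4 of Pdgfra, 9 of Dab2 and 13 of Srgn, the last being 68.4% of all Srgn UMIs there. The keratin genes of the list had 4 UMIs of Krt8, or 133 CPM (36.3 to 341), and 2 of Krt18, or 66.6 CPM (8.07 to 241), over the 3 control cells. Both intervals reached the library levels of 36.8 and 20.3 CPM. Fn1, the fibronectin gene, had 1 UMI over the same 3 cells, or 33.3 CPM (0.843 to 186) against 190 CPM in the library. Of the pluripotency genes, Sox2 had 4 UMIs, or 133 CPM (36.3 to 341), against 352 CPM in the library, and Zfp42 also had 4, or 133 CPM (36.3 to 341), against 644 CPM. Nanog had 1 and Pou5f1 22, and the interval of each reached its library level.

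Grouping cells by the endoderm genes, and not by the basement membrane genes, led to the same 3 control cells. UMIs of Gata4, Gata6, Sox7, Sox17, Foxa2 and Pdgfra were counted in each cell, with the groups again set after the data were seen. Control cells with 3 or more such UMIs were 3 in number, the 3 described above. In sonKD there were also 3, at 498, 765 and 7601 CPM of the 9 genes, so 2 of them lay above the median of their library (459 CPM) but within its 90th percentile (890 CPM). Cells with 1 or 2 such UMIs, 146 in control and 96 in sonKD, held 591 CPM (551 to 634) and 566 CPM (524 to 610). Cells with none held 533 CPM (526 to 540) and 497 CPM (489 to 505). Leaving Sparc aside, the other 8 genes in control were at 334 CPM (304 to 367) with 1 or 2 such UMIs and 313 CPM (307 to 318) with none. In sonKD they were at 301 CPM (271 to 334) and 268 CPM (262 to 274). Both pairs of intervals without Sparc overlapped. Col4a1 was at 21.6 CPM (14.5 to 31.0) in the control cells with 1 or 2 such UMIs, against 11.8 CPM (10.7 to 12.9) in those with none. In sonKD the same values were 15.7 CPM (9.44 to 24.5) and 10.1 CPM (9.04 to 11.3), whose intervals overlapped. Among the other genes in control, only Sparc had intervals apart, at 257 CPM (231 to 285) and 220 CPM (215 to 225). The rest overlapped, with Lama1 at 37.2 and 35.6 CPM, Lamb1 at 16.4 and 14.3, Lamc1 at 117 and 120 and Nid1 at 27.6 and 36.5.

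**Figure D3:**
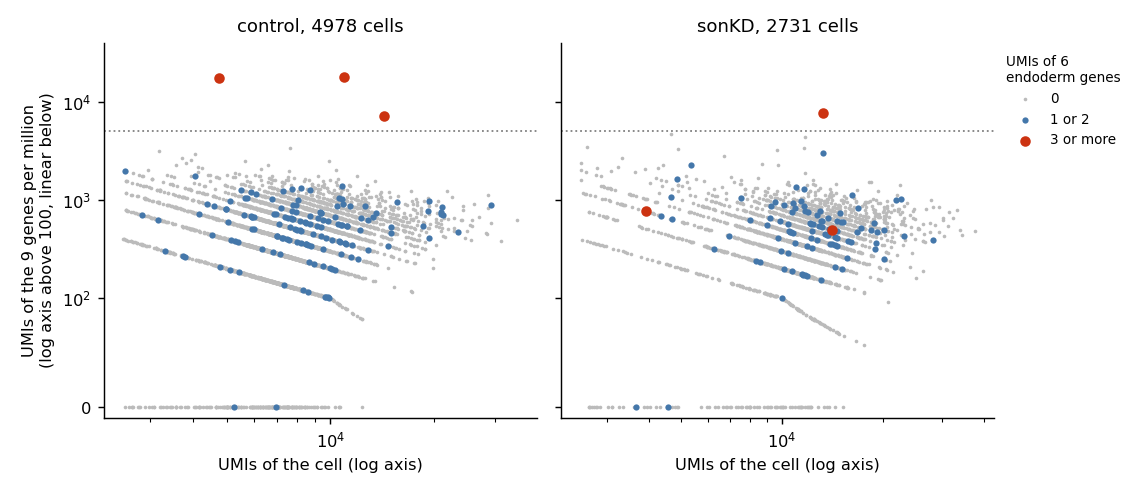
Each point is a cell, with its UMIs (log axis) against the UMIs of the 9 genes per 1000000 (log axis above 100, linear below), in control and sonKD. Colour and size give the UMIs of 6 endoderm genes. The 4 cells over the dotted line at 5000 CPM all have 3 or more, and 2 other sonKD cells with as many lie at 498 and 765 CPM. The slanted rows of points are cells with the same small number of UMIs.

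These few cells carried part of the difference between the libraries. They held 11.6% of the Col4a1 UMIs of the control cells, 12.6% of Col4a2, 7.11% of Lamb1 and 5.27% of Lama1. In sonKD the single cell held 3.78% of Col4a1, 5.42% of Col4a2, 2.74% of Lamb1 and 2.50% of Lama1. Without the 4 cells the log2 ratio of Col4a1 was -0.23 (-0.43 to -0.02), that of Lama1 -0.29 (-0.41 to -0.17) and that of Lamb1 -0.24 (-0.42 to -0.05). Col4a2 came to 0.10 (-0.22 to 0.41). The ratio of Hspg2 was -0.33 (-0.42 to -0.24), that of Lamc1 -0.16 and that of Nid1 -0.22, all close to their values over all cells. So 7 of the 9 intervals still lay below 0, again without a count over all genes, and Sparc, at 0.06 (0.01 to 0.10), still lay above it.

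Across single cells the genes were only weakly related. Correlations were taken over cells thinned to 5000 UMIs, on log2(UMIs + 1), and these cells share a library and a depth. The median Pearson r of the 36 pairs was 0.03 over 4464 control cells and 0.03 over 2559 sonKD cells. Pairs of a member with any other gene had medians of 0.0034 and 0.0024 and 95th percentiles of 0.04 and 0.04. Of the 36 member pairs, 13 in control and 8 in sonKD were above that percentile. Without the highest cells these became 7 and 4 pairs, and the median r became 0.0080 and 0.016. In counts this sparse such values are no finding, and in control they rested in good part on 2 cells, since the third has under 5000 UMIs.

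Col4a1 and Col4a2 had r = 0.12 in control, above the r of either with any gene at 10 CPM or more. Without the highest cells Col4a2 ranked 40th for Col4a1 and Col4a1 ranked 13th for Col4a2. In sonKD the pair had r = 0.07, and Col4a2 was the 27th partner of Col4a1 and Col4a1 the 11th of Col4a2. Both were found in 14 control cells where 5.21 would share them if they were independent, a ratio of 2.69 (1.47 to 4.51). In sonKD both were found in 8 cells against 2.95, a ratio of 2.71 (1.17 to 5.34). Without the highest cells r was 0.06 in control and 0.05 in sonKD. With another random thinning the sonKD value was 0.14, so the 2 libraries cannot be ordered by it. The next pairs in control were Col4a1 with Lamb1 (r = 0.09, and 0.02 without the highest cells) and Col4a1 with Lamc1 (0.07 and 0.05). Hspg2 had r of 0.06 with Lamb1 and 0.05 with Lama5, and 0.05 and 0.05 without the highest cells.

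**Figure D4:**
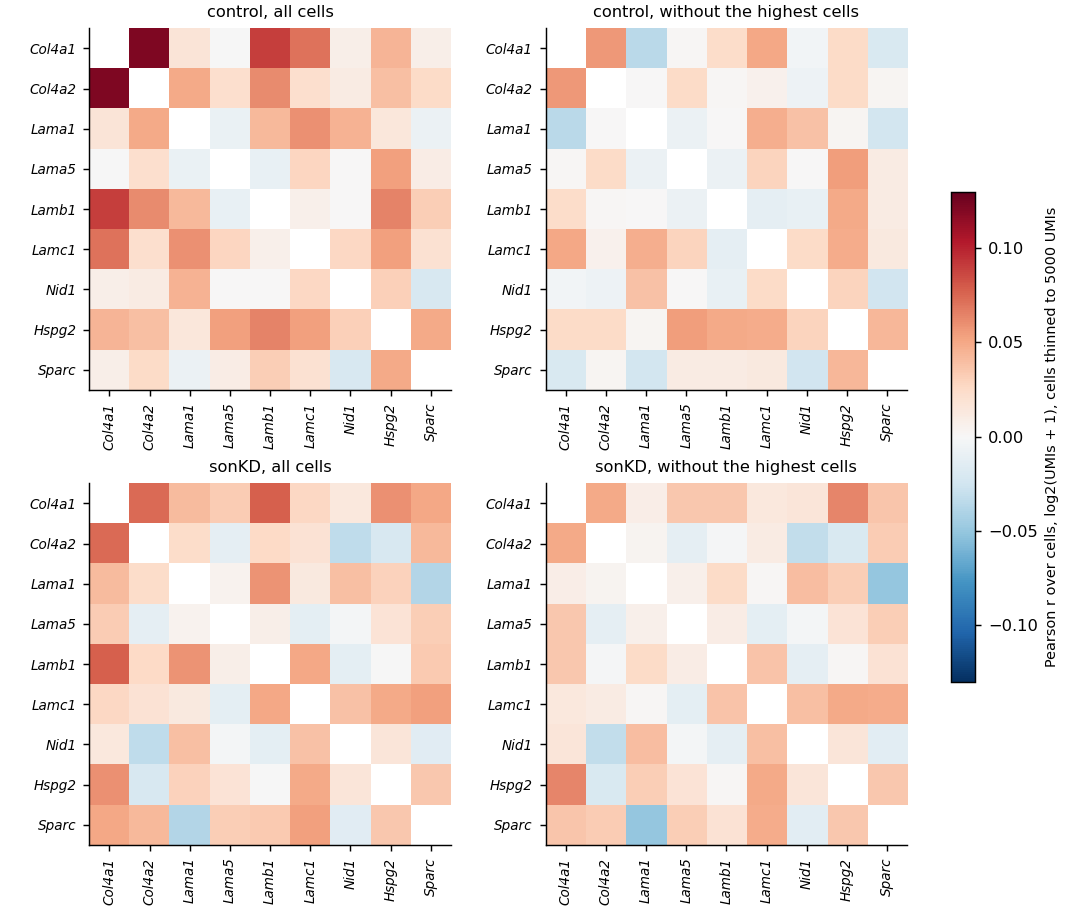
Pearson r over cells for the 36 pairs of the 9 genes, in control (top) and sonKD (bottom), with all cells (left) and without the cells at 5000 CPM or more of these genes (right), on log2(UMIs + 1) of cells thinned to 5000 UMIs. The collagen IV and laminin block at the upper left of control fades without those cells, Col4a1 with Col4a2 going from 0.12 to 0.06.

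The other genes most like the sum of the 9 over cells included nuclear and mitochondrial transcripts. Of the 22236 UMIs of the 9 genes in all control cells, 9146 were of Sparc and 4934 of Lamc1. These genes weigh most in the sum, so the list need not hold for each of the 9. By mean r of the 2 libraries these were Malat1, a nuclear long noncoding RNA (0.14), Sdc4, the syndecan-4 gene (0.13), mt-Co1 (0.12), Dst, the dystonin gene (0.12), and Sfn, the 14-3-3 sigma gene (0.12). They were followed by mt-Co3, mt-Nd4, mt-Co2, Hmga2 and Cald1 (0.12 to 0.11). Leaving out the highest cells changed none of the 10 values by library by more than 0.01. Lamc1 was most like Dst (r = 0.18) and Malat1 in control, and in sonKD most like Malat1 (0.12). Sparc was most like Gpx1 in control (0.12) and Sdc4 in sonKD (0.20).

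Sparc and the sum of the other 8 genes varied differently with the keratin genes and with Malat1. In groups set after the data were seen, Sparc stood at 210 CPM (203 to 217) in control cells with no UMI of the epithelial keratin genes Krt8 and Krt18, and at 485 CPM (384 to 603) in the 33 cells with 3 or more. In sonKD the levels were 222 CPM (213 to 231) and, in 33 cells, 830 CPM (697 to 982). The other 8 genes stood at 311 CPM (302 to 319) and 352 CPM (267 to 454) in control, whose intervals overlapped. In sonKD they stood at 253 CPM (243 to 263) and 412 CPM (320 to 522), whose intervals did not.

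Along Malat1 the sum of the other 8 genes varied more than Sparc. Cells were split into 4 groups by Malat1 UMIs. From the lowest group to the highest, the sum of these 8 genes went from 237 CPM (225 to 249) to 417 CPM (400 to 434) in control. In sonKD it went from 207 CPM (192 to 222) to 310 CPM (291 to 331). Lamc1 went from 85.4 to 165 CPM in control and from 79.2 to 127 CPM in sonKD. Not every gene rose alike. Hspg2 went from 54.0 to 79.9 CPM in control. In sonKD it was at 45.3 CPM (38.6 to 52.9) and 47.1 CPM (39.7 to 55.5). The intervals of Col4a1, Col4a2, Lama5 and Lamb1 in the lowest and highest sonKD groups also overlapped. Sparc was at 226 CPM (214 to 238) and 218 CPM (206 to 231) in control and at 221 CPM (206 to 237) and 248 CPM (230 to 266) in sonKD, and both pairs of intervals overlapped. In the groups between, Sparc was at 217 and 200 CPM in control and at 231 and 247 CPM in sonKD. Overlap alone does not show that Sparc was level. Malat1 itself was lower in sonKD, at 2192 CPM against 2634, and Krt18 was higher, at 33.9 CPM against 20.3. Their part in the ratios of the 9 genes was not tested.

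**Figure D5:**
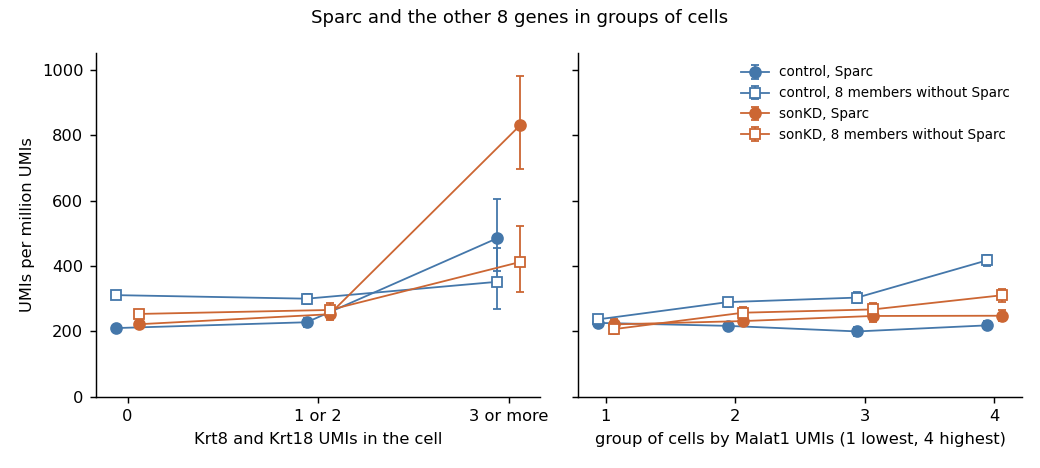
Level in CPM of Sparc (filled circles) and of the other 8 genes summed (open squares) in control (blue) and sonKD (orange) cells thinned to 5000 UMIs, by UMIs of Krt8 and Krt18 in the cell (left) and in 4 groups of cells by Malat1 UMIs (right), with 95% counting intervals. Sparc reaches 485 and 830 CPM in cells with 3 or more keratin UMIs. The sum of the other 8 genes climbs with Malat1, to 417 and 310 CPM, though not every gene in it does so clearly.

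Lists of neighbouring genes of the pathway had median log2 ratios from -0.26 to 0.07, and single genes in them lay farther from 0 in both directions. Of 24 other basement membrane chains and partners, 5 had a mean of 10 CPM or more, and 0 were called in either direction, with a median log2 ratio of -0.26. Fn1 was at 190 CPM in control and 153 in sonKD (-0.31, -0.36 to -0.25), Nid2, the nidogen-2 gene, at 49.0 and 40.9 (-0.26, -0.36 to -0.16), and Col18a1 at 90.8 and 79.6 (-0.19, -0.26 to -0.12). Of 26 genes of collagen modification and secretion, 20 were at that level, with 3 lower, 1 higher and a median of -0.16. Such counts are to be read against the 10.2% lower, the 3.5% higher and the median of -0.12 of all genes, for this list and those that follow. The higher one was Crtap, part of the collagen prolyl 3-hydroxylation complex, at 19.6 and 27.2 CPM (0.47, 0.33 to 0.61). The chaperone genes Hspa5 (-0.25), Pdia3 (-0.18) and Hsp90b1 (-0.17) were not called.

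Among 21 receptor genes 11 were at 10 CPM or more, with 2 lower, 1 higher and a median of -0.14. Bcam, which encodes a receptor of laminin alpha-5, had the farthest ratio, from 67.3 CPM in control to 46.0 in sonKD (-0.55, -0.64 to -0.45). Sdc4 was the higher one, at 124 and 164 CPM (0.40, 0.34 to 0.46). Itgb1, the beta-1 integrin gene common to the main laminin and collagen receptors, was at 149 and 148 CPM (-0.01, -0.07 to 0.04). Rpsa, the highest of the list, was at 5841 and 5477 CPM (-0.09). Of 17 adaptor genes of integrin adhesions 15 were at that level, with 2 lower, 0 higher and a median of -0.10. Flna, the filamin A gene, had the farthest ratio among them, at 47.4 and 35.3 CPM (-0.42). The 3 highest by mean CPM, Actn4 (-0.05), Fermt2 (0.06) and Actn1 (-0.13), were not called. Of 16 genes of matrix proteases and their inhibitors 7 were at that level, with 1 lower, 1 higher and a median of 0.07. The lower one was Timp1, a metalloprotease inhibitor gene (64.8 and 49.8 CPM, -0.38), and the higher one Plaur, the urokinase receptor gene (16.4 and 22.2 CPM, 0.44). Adam17 (19.4 and 18.2 CPM, -0.09) was not called.

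Barcodes set aside for more than 10% mitochondrial UMIs, 625 in control and 1056 in sonKD, held more of the 9 genes than the cells did. Their summed level was 789 CPM (750 to 829) in control and 637 CPM (611 to 663) in sonKD, against 544 CPM (537 to 551) and 503 CPM (495 to 510) in the cells. Lamc1 stood at 192 CPM (173 to 212) and 138 CPM (127 to 151) there, and Hspg2 at 130 CPM (115 to 147) and 82.1 CPM (73.0 to 91.9). Sparc stood at 251 CPM (229 to 274) and 240 CPM (224 to 256) there, against 224 CPM (219 to 228) and 231 CPM (226 to 236) in cells. Its intervals lay apart in control and overlapped in sonKD. None of these barcodes reached 5000 CPM of the 9 genes.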

How the data were processed

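Raw UMI counts per gene and barcode were deposited by the authors for 2 libraries. Per the file headers they were made with Cell Ranger 7.1.0, and the submitters' processing notes name the build mm10. The annotation, and whether intronic reads were counted, are not given in the sources used here. The matrices list all barcodes, without a selection of cells.

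Cells were barcodes with 2500 UMIs or more, 1000 genes or more and a mitochondrial share up to 10%. Counts were summed over the cells of a library and scaled to 1000000 (CPM). Log2 ratios are sonKD over control with no pseudocount. Intervals are exact Poisson for levels, exact conditional binomial for ratios and Clopper-Pearson for shares, and the interval of a difference of shares combines those bounds. A gene was compared when its mean reached 10 CPM, and called at 80% of control or less, or as far above it. Levels of different genes are not compared, because 3′ counts depend on each gene's end. Doublets were not removed; removal by Scrublet score at 0.8% per 1000 cells was an alternative (198 and 60 cells), as Scrublet itself called only 3 and 1. Thinning to fixed depth and correlations were tested on simulated data. With 1 library per group there is no test.

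The members and lists were chosen with earlier results of these data known. Named are the 9 genes, Son and the 10 genes most like the summed members over cells. From each pathway list the 3 highest genes by mean CPM and the farthest ratio are named. Other genes were chosen after their values were seen. Of the 32285 identifiers, 32158 were found in GENCODE M21. Python 3.11.15, numpy 2.4.6, scipy 1.17.1, scanpy 1.11.5, R 4.3.3 and edgeR 4.0.16 (TMM factors) were used. Alternatives were the cell limits, scaling, filter, thinning and removal of sets of cells.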

Additional observations from a re-analysis of the deposited data

How the results depend on the processing

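Of 90 recomputed log2 ratios of single genes, 81 stayed inside the main counting interval and no ratio whose interval excluded 0 changed sign. The median of the 8 genes stayed below 0 in every alternative. The count of 3 genes at 80% of control or less was less stable. It was 1 with a mean of at least 50 CPM, with at most 5% mitochondrial UMIs, without the 1% of cells highest in member UMIs, without cells with a UMI of the 6 endoderm genes, and without the 4 highest cells (an alternative chosen after seeing the data). It was 0 with TMM factors, without mitochondrial and ribosomal protein genes and with a mean of CPM per cell, and 5 in cells of 5000 to 15000 UMIs. Intervals of the difference in share of cells lay below 0 for 2 genes in the main thinning, 3 with another seed and 5 at 5000 UMIs. The same count was not made over all genes. The share of cells with any of the 9 genes, 71.4% in control and 69.2% in sonKD, was 95.7% and 96.9% without thinning, 89.8% and 88.2% at 5000 UMIs, and 70.0% and 67.2% with at most 5% mitochondrial UMIs. On counts without logs the control median r was 0.066 and r of Col4a1 with Col4a2 was 0.41. That r in control was 0.061 without cells with a UMI of the endoderm genes, 0.056 without the highest cells, and 0.039 without them and without thinning (also chosen after seeing the data). In sonKD it was 0.14 without thinning and 0.14 with another seed. The cause of these shifts was not tested. Few UMIs limit Col4a2 most, at 214 and 166. No paired analysis was possible because each group holds 1 library.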
